A study of Mus musculus with 4 samples.

Results

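The genes described here are 10 that encode contractile proteins of the heart. Most of them form pairs of a fetal or atrial form and a form of the adult ventricle. Myh7 and Myh7b have no adult partner among the 10. All were taken by gene name from the authors' table and are Acta1, Actc1, Myh7, Myh7b, Myl2, Myl3, Myl4, Myl7, Tnni1 and Tnni3. They are 10 of 48432 gene rows, each found once and each with an estimate in both groups. RNA came from cardiomyocytes, the muscle cells of the heart, released from mouse hearts by Langendorff perfusion after 3 days on a doxycycline diet. The control group, labelled with the genotype MHC, and the group labelled RbFox2 or Rbfox2 OE, which overexpresses the splicing regulator RBFOX2, held 2 libraries each on a mixed C57BL and FVB background, and both groups received doxycycline. The labels do not name the promoter that drives the transgene, the age or sex of the mice, or how many hearts went into a library. The series title places the work in the study of conduction defects in myotonic dystrophy.

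Shortening of the muscle cell is produced by myosin heavy chains, each carrying an essential and a regulatory light chain, pulling on actin filaments whose access is controlled by the troponin complex. For several of these proteins the fetal heart uses a form that is replaced around birth in the ventricle, while atrial muscle keeps its own light chains. Renewed expression of fetal forms in the adult ventricle is widely used as a sign of cardiac stress.

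The unit of the table is FPKM, read fragments scaled to transcript length and library size, so that the levels of different genes can be set side by side. For each gene the authors gave 1 value per group, pooled over its libraries, and a pair of bounds of unstated level, printed here as an interval, with no value per library. No test between the groups was therefore possible, there was no replicate spread, and the number of fragments behind a value is unknown. Differences are given as the plain ratio and as the log2 ratio of Rbfox2 OE over control once 1 FPKM had been added to both as a pseudocount, so changes of low genes come out too small. In what follows, "rose" and "fell" are used of genes that were at least 2-fold apart with bounds that did not overlap. The overexpressed gene itself, Rbfox2, stood at 14.7 FPKM in control cells and 293 FPKM in Rbfox2 OE.

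The promoters of these genes are shown first, because the serum response element known as the CArG box is a textbook feature of muscle actin genes, and it was found here in fetal or atrial and in adult members alike. RefSeq windows on GRCm38.p6 covering the 250 bases before the annotated start were matched for all 10 genes. A CArG box was found in the windows of 4 of the 10, Acta1, Actc1, Myl3 and Myl7, against 1.47% of 32851 windows of all genes. The window of Acta1 lies at chr8:123894776-123895025 and that of Myl7 at chr11:5898783-5899032, both on the minus strand. They are printed 5′ to 3′ in the direction of the gene, with capitals marking the CArG box, the M-CAT motif (CATTCC) and the TATAAA motif where present.

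Acta1: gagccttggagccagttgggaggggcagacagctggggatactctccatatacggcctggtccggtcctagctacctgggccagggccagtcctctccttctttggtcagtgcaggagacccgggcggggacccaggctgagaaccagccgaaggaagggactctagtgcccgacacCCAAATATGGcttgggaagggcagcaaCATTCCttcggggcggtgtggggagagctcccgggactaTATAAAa
Myl7: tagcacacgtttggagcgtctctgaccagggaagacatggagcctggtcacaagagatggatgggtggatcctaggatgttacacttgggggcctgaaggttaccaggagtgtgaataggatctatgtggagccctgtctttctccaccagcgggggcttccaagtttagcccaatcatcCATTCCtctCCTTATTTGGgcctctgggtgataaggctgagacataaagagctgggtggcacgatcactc

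In Acta1 the CArG box spans bases 73 to 64 before the RefSeq start and the M-CAT motif bases 46 to 41. In the Myl7 window the order is the other way round, with the M-CAT motif at bases 70 to 65 and the CArG box at bases 61 to 52. The boxes of the adult genes Actc1 (chr2:114052903-114052932, minus strand, box at bases 47 to 38 before the start) and Myl3 (chr9:110763583-110763612, plus strand, box at bases 85 to 76) are shown with 10 bases on each side, the box in capitals.

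Actc1: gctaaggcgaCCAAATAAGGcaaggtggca
Myl3: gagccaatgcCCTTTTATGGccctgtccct

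M-CAT was present in 4 of the 10 genes, Acta1, Myh7, Myl3 and Myl7, and in 12.6% of all windows, and TATAAA in 2, Acta1 and Myl2, and in 12.4%. The E-box (CANNTG) was present in 8 of the 10 genes and in 66.2% of windows, and a GATA motif (AGATA or TGATA) in 5 and in 40.0%. The MEF2 motif was present in 0 of the 10 and in 0.508% of all windows. Both strands were searched, motifs could overlap, and Myh7, Myl2 and Tnni1 had a pair of windows, either of which could hold the motif. RefSeq and GENCODE starts differ for several genes. The windows of Myl2 end at chromosome 5 positions 122092723 and 122093188, and the GENCODE gene begins only at 122100951, so they do not adjoin that start. Windows of Actc1, Myl3, Tnni1 and Tnni3 lie inside the GENCODE gene and hold exons of the gene itself. The window of Myh7b and 1 of Myh7 reach partly into the gene and also hold its exons. The window of Myl4, which held neither a CArG box nor M-CAT, overlaps exons of the neighbouring gene Cdc27. The stretches printed here touch no annotated exon. A match describes these letters and is neither a bound site nor a cause.

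In control cells the genes of the adult ventricle led by a wide margin. Myl2, the ventricular regulatory light chain, was the most abundant gene with an estimate, at 24688 FPKM (interval 17945 to 31431). Loci with too many fragments, 30 gene rows in control cells and 26 in Rbfox2 OE, among them Myh6, had no estimate and enter no rank. Of the 10 genes, Tnni3, cardiac troponin I, followed at 7811 FPKM, Actc1, cardiac alpha-actin, at 6867 FPKM, and Myl3, the ventricular essential light chain, at 5009 FPKM. Neighbours within these last 3 had overlapping bounds, so their order is not settled. Acta1, skeletal alpha-actin, came 36.5 times below Myl3, at 137 FPKM. Below it stood Myh7 at 108 FPKM, Myl4 at 51.0 FPKM, Myl7 at 49.0 FPKM, Myh7b at 18.9 FPKM and Tnni1 at 0.236 FPKM. The bounds of Acta1 and Myh7, of Myl4 and Myl7, and of Myl7 and Myh7b overlapped.

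In Rbfox2 OE the 4 adult genes were still the most abundant of the 10, and 3 fetal or atrial genes had moved up toward them. Myl2 stayed first among genes with an estimate, at 18007 FPKM (interval 12929 to 23086). Myl3 at 4015 FPKM, Tnni3 at 3866 FPKM and Actc1 at 3013 FPKM again followed with overlapping bounds between neighbours. Acta1 was then 2.15 times below Actc1, with separate bounds. Among genes with an estimate Acta1 ranked 28 in Rbfox2 OE, against 542 in control cells, while Myl4 moved from rank 1391 to 135 and Myl7 from rank 1442 to 168. The 10 genes together took 8.72% of the summed FPKM of the control and 6.99% of that of Rbfox2 OE. Loci without an estimate, Myh6 in both groups and Atp2a2 in control cells among them, are missing from these sums. The percentages are therefore not shares of all transcripts.

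**Figure D1:**
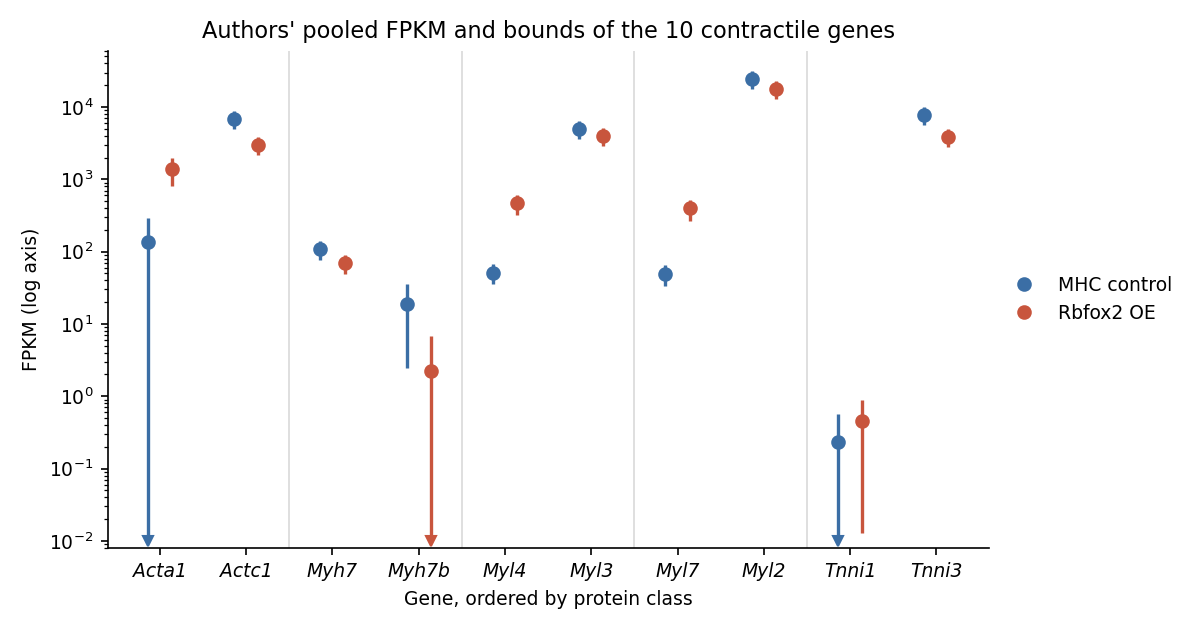
Authors' pooled FPKM (points, log axis) and bounds (lines) of the 10 genes, in the MHC control (blue) and Rbfox2 OE (red), grouped by protein class with grey dividers. A downward arrowhead marks a lower bound of 0, which a log axis cannot show. Acta1, Myl4 and Myl7 stand higher in Rbfox2 OE with separate bounds, Actc1 and Tnni3 lower with separate bounds, and the bounds of the other 5 genes overlap.

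Genes were compared where the mean of both groups was at least 1 FPKM, which 11697 genes and 9 of the 10 contractile genes reached. Tnni1, with a mean under 1 FPKM, was not. A difference of at least 2-fold in either direction was seen for 6 of the 9, where 17.0% of all genes compared had one, and separate bounds for 5 of the 9, where 16.0% had them. At least 2-fold higher in Rbfox2 OE were 3 of the 9, Acta1, Myl4 and Myl7, against 6.97% of all genes compared. At least 2-fold lower were also 3 of the 9, Actc1, Tnni3 and Myh7b, against 10% of all genes. Bounds were separate upward for 3 of the 9, where the background was 6.67%, and downward for 2 of the 9, Actc1 and Tnni3, where it was 9.33%. With only 9 genes these shares are coarse. The median log2 ratio of the 9 was -0.46, beside -0.06 for all genes compared, and it hides a split, since no compared member lay between -0.32 and 2.99.

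The actin pair showed the largest shift of level between its members. Actin forms the thin filament, and Acta1, the form typical of skeletal muscle, is expressed in the fetal heart of rodents, while Actc1 is the form of the adult heart. Acta1 stood at 137 FPKM in control cells (interval 0 to 293) and at 1400 FPKM in Rbfox2 OE (interval 818 to 1982). It rose 10.2-fold, a log2 ratio of 3.34, with a range of 1.48 to 10.95 between the nearest and the farthest bounds. The gene lies on GRCm38 chromosome 8, 123891769 to 123894751, minus strand.

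Actc1 moved the other way, from 6867 FPKM (interval 4990 to 8745) to 3013 FPKM (interval 2190 to 3836). It fell 2.28-fold, a log2 ratio of -1.19, and of -0.38 between the nearest bounds. The sum of both actins went from 7005 to 4413 FPKM. The gain of Acta1, 1263 FPKM, was 32.8% of the loss of Actc1. Acta1 made up 1.96% of the pair in control cells and 31.7% in Rbfox2 OE. The lowest and highest shares that the bounds allow were 0 to 5.55% and 17.6 to 47.5%, which do not overlap.

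The control value of Acta1 carries a wide error, with a bound 114% of the value away, against 27 to 32% for Actc1, Myh7, Myl2, Myl3, Myl4, Myl7 and Tnni3 in either group. Cuffdiff treated Acta1 in 1 locus of 4435 kb together with 188 other genes, since the annotated gene Gm20388 spans the region on the opposite strand. Of the 50 other genes of that locus that could be compared, 49 had lower bounds of 0 in both groups and 0 had separate bounds. Bounds cannot be separate where the lower bound is 0 in both groups, so this count does not set Acta1 apart from its neighbours. Of the 50 neighbours, 5 were at least 2-fold apart, and the median log2 ratio of the 50 was -0.36. Sequence shared with other genes was small for the actins. Of the 50-base sequences in Acta1 transcripts 2.02% occurred in transcripts of other genes, and of those in Actc1 0%, so that Acta1 and Actc1 share none with each other.

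Both atrial light chains rose, and by nearly the same factor. Myl4 encodes the essential light chain of the atria, which the fetal ventricle also uses, and Myl7 the atrial regulatory light chain, an early marker of heart muscle. Myl4 (chromosome 11, 104550663 to 104595753, plus strand) went from 51.0 FPKM (interval 35.1 to 66.8) to 467 FPKM (interval 322 to 612). It rose 9.16-fold, a log2 ratio of 3.17, and the bounds give a range of 2.25 to 4.08.

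Myl7 (chromosome 11, 5896637 to 5898782, minus strand) went from 49.0 FPKM (interval 33.4 to 64.5) to 395 FPKM (interval 268 to 522). It rose 8.07-fold, a log2 ratio of 2.99, with a range of 2.04 to 3.93. Myl7 shared its locus with no other gene and 0% of its 50-base sequences with other transcripts. The ratio of Myl4 to Myl7 was 1.04 in control cells and 1.18 in Rbfox2 OE, and their bounds overlapped in both groups. On the scale of log2 ratios, Acta1, Myl4 and Myl7 lay at percentiles 99.8, 99.7 and 99.7 of the 11697 genes compared.

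The ventricular partners differed much less. Myl3 stood at 5009 FPKM in control cells (interval 3660 to 6358) and at 4015 FPKM in Rbfox2 OE (interval 2935 to 5096), a log2 ratio of -0.32. Myl2 stood at 24688 FPKM and 18007 FPKM, a log2 ratio of -0.46. Bounds overlapped for both, and the ratio of Myl3 to Myl2 was 0.203 in control cells and 0.223 in Rbfox2 OE.

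Within the pairs, Myl4 took 1.01% of the essential light chain sum in control cells (0.550 to 1.79% by the bounds) and 10.4% in Rbfox2 OE (5.95 to 17.2%). Myl7 took 0.198% of the regulatory light chain sum in control cells (0.106 to 0.358%) and 2.15% in Rbfox2 OE (1.15 to 3.88%). The ranges were separate for both pairs. The share thus grew 10.3-fold and 10.9-fold, although the adult transcript remained 8.60 times as abundant as Myl4 and 45.6 times as abundant as Myl7. Added together, Myl4 and Myl3 went from 5060 to 4482 FPKM, and Myl7 and Myl2 from 24737 to 18402 FPKM.

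**Figure D2:**
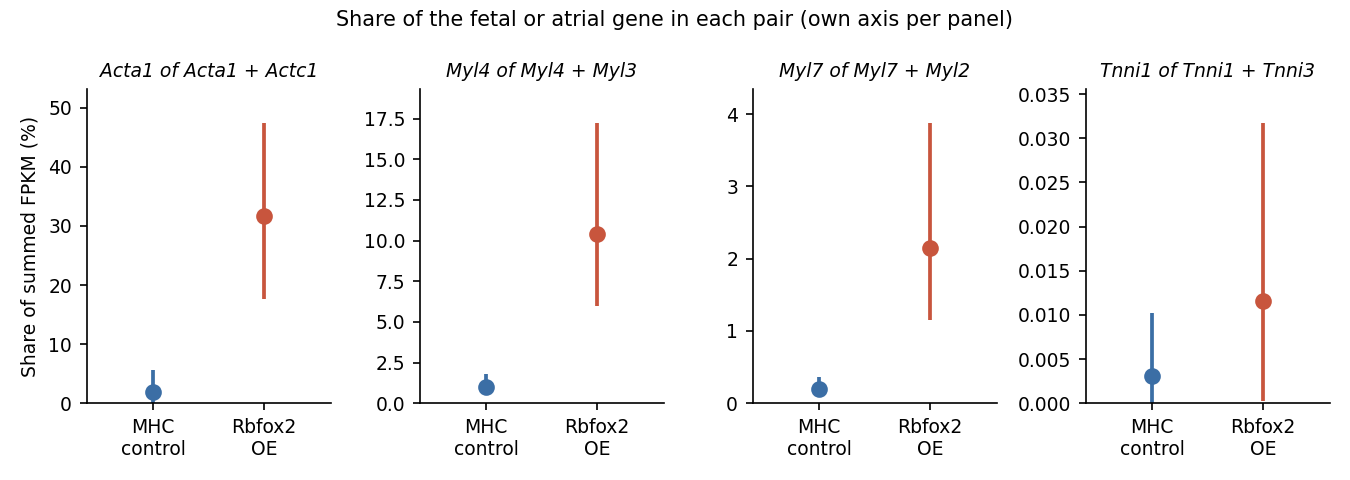
Share of the fetal or atrial gene in the summed FPKM of its pair (percent, a separate axis for each panel) in the MHC control (blue) and Rbfox2 OE (red). Points are the authors' pooled values and lines the lowest and highest shares that the authors' bounds allow. The ranges are separate for Acta1, Myl4 and Myl7 and overlap for Tnni1, whose share was 0.00302% in control cells and 0.0116% in Rbfox2 OE.

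Troponin I is the inhibitory subunit of the troponin complex, and the slow skeletal form Tnni1 is the form of the fetal heart until Tnni3 replaces it. Tnni1 was barely expressed in either group, with 0.236 FPKM in control cells (interval 0 to 0.575) and 0.447 FPKM in Rbfox2 OE (interval 0.0128 to 0.882). Its bounds overlapped, and it did not reach the level at which genes were compared. It made up 0.00302% of the pair in control cells and 0.0116% in Rbfox2 OE, with overlapping ranges of 0 to 0.0102% and 0.000258 to 0.0318%.

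Tnni3 went from 7811 FPKM (interval 5623 to 9998) to 3866 FPKM (interval 2774 to 4957) and fell 2.02-fold, a log2 ratio of -1.01. Its bounds were separate, but it passed the 2-fold threshold narrowly and missed it, at -0.95, after centring on the median gene and, at -0.86, after rescaling without mitochondrial and the most abundant genes. On the deposited scale the troponin I pair thus held less adult transcript, with almost no fetal transcript in its place. Tnni1 gained 0.211 FPKM where Tnni3 dropped by 3945 FPKM. Against the median of the cardiomyocyte markers, described below, the log2 ratio of Tnni3 was -0.27.

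The myosin heavy chain pair could not be described as a share. Myh6, the alpha heavy chain of the adult mouse heart, carried the status HIDATA in both groups, which Cuffdiff gives to loci with too many fragments, and was listed at 0. Myh7, the beta heavy chain of the fetal ventricle, is a classical fetal gene and did not follow Acta1 and the atrial light chains. It stood at 108 FPKM in control cells (interval 77.1 to 139) and 68.5 FPKM in Rbfox2 OE (interval 48.3 to 88.8). The log2 ratio was -0.65, with a range of -1.51 to 0.20, and the bounds overlapped. Myh7 lies on chromosome 14, 54970684 to 54994626, minus strand, beside Myh6. Of its 50-base transcript sequences 15.6% also occur in Myh6 transcripts, so its value depends on how fragments were divided between both genes, 1 of which has no estimate.

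Other RNAs of the locus were also measured. Mhrt, a noncoding RNA antisense to Myh7, stood at 90.3 FPKM in control cells and 74.2 FPKM in Rbfox2 OE, with lower bounds of 0 in both. Gm17428, an annotated gene of 93 bases on the strand opposite to Myh7, stood at 90.9 FPKM in control cells (interval 73.8 to 108) and was listed at 0 in Rbfox2 OE. It was chosen for naming after its values were seen. The microRNA gene Mir208b within Myh7 was listed at 0 in both groups, as was Mir499 within Myh7b, in libraries selected for polyadenylated RNA.

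Myh7b, a slow-tonic myosin related to Myh7, had the lowest log2 ratio of the 10 genes but a poorly determined one. It stood at 18.9 FPKM in control cells (interval 2.44 to 35.4) and 2.25 FPKM in Rbfox2 OE (interval 0 to 6.87), with overlapping bounds. The plain ratio was 8.41-fold lower, and the log2 ratio of -2.62 ran from -5.19 to 1.19 by the bounds. It was -1.72 with a pseudocount of 5 FPKM. Trpc4ap, which shares its locus on the opposite strand, stood at 44.8 and 45.2 FPKM. Of the sum of Myh7 and Myh7b, Myh7 took 85.1% in control cells (68.5 to 98.3%) and 96.8% in Rbfox2 OE (87.6 to 100%).

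**Figure D3:**
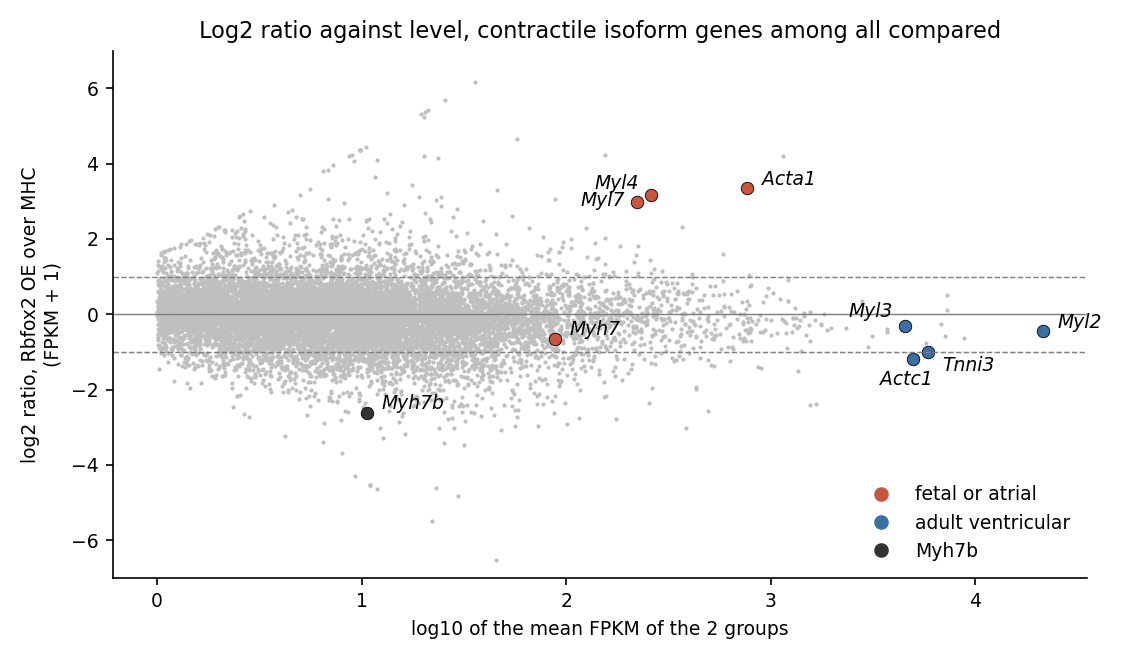
Log2 ratio of Rbfox2 OE over MHC (FPKM + 1) against log10 of the mean FPKM for all genes compared (grey), with the 9 compared contractile isoform genes marked as fetal or atrial (red), adult ventricular (blue) or Myh7b (black). Dashed lines mark a 2-fold difference, and 1 gene, Atp2a2, which had no estimate in control cells and was listed there at 0, lies outside the vertical axis. Acta1, Myl4 and Myl7 lie near 3 and Myh7 lies below 0, among the adult genes.

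Grouped by role, the 5 fetal or atrial genes summed to 345 FPKM in control cells and 2331 FPKM in Rbfox2 OE, 6.75 times as much, and the 4 adult genes to 44375 and 28901 FPKM, 0.651 times as much. The rise of the first sum came from Acta1, Myl4 and Myl7, since Myh7 was lower and Tnni1 added less than 1 FPKM. By both criteria together, 3 of the 5 fetal or atrial genes rose, where 5.27% of all genes compared did. Of these 5, Tnni1 was not compared and could not be counted as risen. Among the 4 adult genes 2 fell, where 7.42% of all genes compared did.

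The cells in the preparations were compared through marker genes. Of 10 cardiomyocyte markers, 8 had an estimate in both groups, 2 of these fell and 0 rose, beside 7.42% and 5.27% of all genes compared. The median log2 ratio of the 8 was -0.74, and their summed level was 20150 FPKM in control cells and 11698 FPKM in Rbfox2 OE. Myh6 was listed at 0 in both groups and Atp2a2 in control cells for want of an estimate. Of the 10 markers, 6 are also in the list of other sarcomere genes. For the other cell types, counts of markers that rose stand against 5.27% of all genes compared, and sums run over every listed marker. Fibroblast markers rose in 5 of 8 (sum 213 to 504 FPKM), macrophage and leukocyte markers in 6 of 8 (66.4 to 265 FPKM) and endothelial markers in 2 of 8 (220 to 387 FPKM). Smooth muscle and pericyte markers rose in 2 of the 7 compared (170 to 396 FPKM) and red blood cell markers in 4 of the 5 compared (56.6 to 295 FPKM). In bulk RNA fewer cells of a type and less RNA per cell cannot be told apart, and the part of cell composition in the levels of the contractile genes was not tested.

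Set against the median of the 8 cardiomyocyte markers, a scale chosen after seeing the data, the log2 ratios of Actc1 and Tnni3 became -0.45 and -0.27. Those of Myl3, Myl2 and Myh7 changed sign, to 0.42, 0.29 and 0.09. On this scale 1 of the 9 genes, Myh7b, was 2-fold lower in place of 3, and 0 in place of 2 had separate bounds downward. Acta1, Myl4 and Myl7 reached 4.08, 3.91 and 3.73, and Myh7b stood at -1.88. The shares within pairs do not depend on this scale, since both genes of a pair are multiplied by the same factor.

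Acta1 and Tnni1 are also genes of skeletal muscle. All 12 of the skeletal muscle markers, which include Myod1 and Pax7, had a mean under 1 FPKM. Together they summed to 2.25 FPKM in control cells and 2.88 FPKM in Rbfox2 OE. Pax7 was listed at 0 in both groups, Myh4 in control cells, and Myh1 and Myh2 in Rbfox2 OE.

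Atrial markers other than the light chains moved in both directions. Of 13, 5 rose and 2 fell, beside 5.27% and 7.42% of all genes, with a median log2 ratio of 0.60 and none at 0. They summed to 462 FPKM in control cells and 2605 FPKM in Rbfox2 OE. Most of the second sum was Nppa, atrial natriuretic factor, at 118 FPKM in control cells and 2178 FPKM in Rbfox2 OE. The next in log2 ratio were Bmp10 (0.512 and 6.84 FPKM) and Sln (21.4 and 109 FPKM), both of atrial muscle. The potassium channel genes Kcnj3 (0.343 of the control level) and Kcnj5 (0.407 of it), which carry the acetylcholine-sensitive current of the atria, fell. These 5 markers were chosen for naming after their values were seen. Of 8 ventricular markers 4 fell and 0 rose, against the same background, with a median log2 ratio of -1.17. Those that fell were Kcnd2, Fhl2, Pln and Myom2. Pln is also a cardiomyocyte marker and Myom2 is also in the list of other sarcomere genes, so these counts overlap. Irx4, Hey2, Lrrc10 and Mypn did not fall, with log2 ratios of -0.62, -0.07, -0.10 and -0.11. Whether the share of atrial cells differed between the preparations was not tested.

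The genes of the list of other sarcomere genes, 39 in number, moved less than Acta1, Myl4 and Myl7. Of the 25 compared, 3 rose and 3 fell, where 5.27% and 7.42% of all genes compared did so, and the median log2 ratio was -0.40. The largest rises were those of the tropomyosin genes Tpm3 and Tpm4. Tpm3 went from 18.2 FPKM (interval 12.1 to 24.4) to 55.9 FPKM (interval 37.9 to 73.9), and Tpm4 from 30.5 FPKM to 66.4 FPKM. Both stood far below Tpm1, at 7378 FPKM in control cells and 6174 FPKM in Rbfox2 OE. Which cells the Tpm3 and Tpm4 transcripts came from was not tested. The largest falls were those of Mylk4, a myosin light chain kinase family member, from 29.9 FPKM to 5.62 FPKM, and Myom2, a structural protein of the M-band, from 417 FPKM to 107 FPKM. Fast and embryonic skeletal heavy chains did not accompany Acta1: Myh1, Myh2, Myh3, Myh4 and Myh8 were each under 0.1 FPKM in both groups. Myh1, Myh2 and Myh4 are also among the skeletal muscle markers above, so both observations rest partly on the same genes.

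Of 14 nonmuscle and smooth muscle actin and myosin genes compared, 4 rose and 0 fell, beside 5.27% and 7.42% of all genes, with a median log2 ratio of 0.84 and a range of -0.38 to 1.65. Acta2, smooth muscle alpha-actin, which is also made in the fetal heart, rose from 43.7 FPKM (interval 30.7 to 56.8) to 140 FPKM (interval 99.2 to 180), a log2 ratio of 1.65. Myl9, the smooth muscle regulatory light chain, rose from 29.9 FPKM to 76.1 FPKM. Of the 8 smooth muscle markers counted above 6 belong to this list, Acta2 and Myl9 among them, so both counts rest partly on the same genes. The part of endothelial cells and fibroblasts, some of whose markers rose as well, was not tested. Counting Acta2 with Acta1, a choice made after seeing the data, moved the share of both over Acta1, Acta2 and Actc1 to 2.57% in control cells and 33.8% in Rbfox2 OE.

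Of 25 compared genes known to regulate contractile isoforms, 1 rose and 2 fell, shares near the 5.27% and 7.42% of all genes, and the median log2 ratio was -0.20. Hopx, a homeodomain protein that restrains serum response factor, fell from 178 FPKM (interval 126 to 230) to 22.8 FPKM (interval 15.5 to 30.1), a log2 ratio of -2.91. Smyd1, a muscle methyltransferase needed for sarcomere assembly, fell from 238 FPKM (interval 160 to 316) to 68.1 FPKM (interval 43.3 to 93.0). Nr2f2, a nuclear receptor of atrial muscle and of vessels, rose from 2.06 FPKM to 5.14 FPKM, which is just past the threshold on the log2 scale. Srf itself, which encodes serum response factor and was chosen for naming because it binds the CArG box, stood at 39.7 FPKM (interval 18.4 to 61.0) and 31.96 FPKM (interval 13.5 to 50.4), with overlapping bounds.

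**Figure D4:**
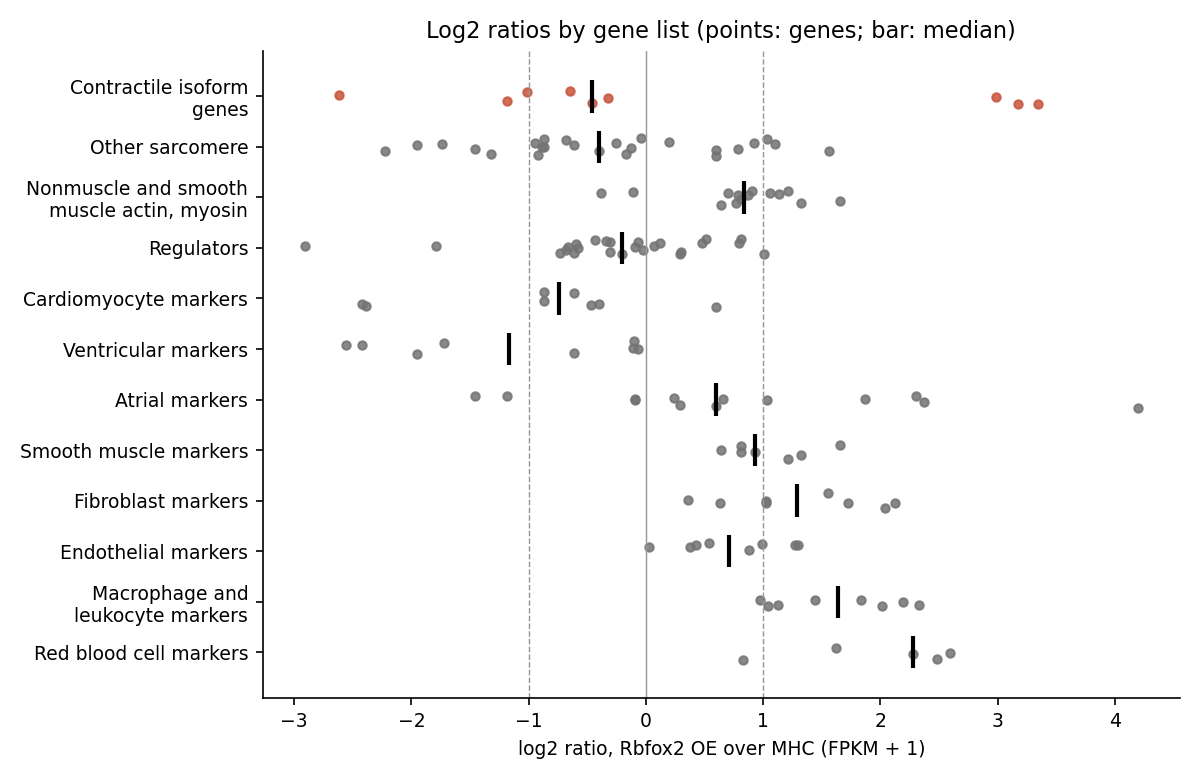
Log2 ratio of Rbfox2 OE over MHC (FPKM + 1) for the contractile isoform genes (red) and the compared genes of each list (grey points), with the median of each as a black bar and 2-fold differences as dashed lines. The contractile isoform genes fall into 3 near 3 and 6 below 0. All compared markers of smooth muscle, fibroblasts, endothelium, macrophages and leukocytes, and red blood cells lie above 0.

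The counts over all genes also depend on the scaling of the groups. As deposited, 815 genes were 2-fold higher and 1172 lower. Rescaling to totals without mitochondrial genes and the 10 genes of highest mean raised the Rbfox2 OE values by 0.16 on the log2 scale. The log2 ratios of low genes rose by less, since the pseudocount of 1 FPKM was not rescaled. The median gene moved from -0.06 to 0.07, and 1077 genes were higher and 913 lower. Under that scaling 3 of the 9 genes were 2-fold higher and 2 lower, and all 10 genes kept the sign of their log2 ratio.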

How the data were processed

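Polyadenylated RNA of 4 libraries, 2 per group, was prepared with a stranded TruSeq kit and sequenced on a HiSeq4000, per the labels' protocols. The submitters' processing notes name STAR 2.4.2a, Cuffdiff 2.2.1, HTSeq, DESeq2, Trimmomatic, Picard 1.119 and bcl2fastq 2.17.1.14, and the builds GRCm38 and mm10. The deposited values are FPKM with bounds and a status word, 1 value per gene and group, which per the file headers come from the authors' Cuffdiff run. The normalization mode, strand setting and annotation are not given in the sources used here. The FPKM values carry no depth, so no counting interval or floor was given, and exact zeros are reported as listed at 0.

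The members and gene lists were chosen with earlier results of these data known. The design called for limma only if values per library existed, and none did, so no test was run and no p-value computed. For 110 repeated gene names the values were added up. Comparison was limited to genes averaging at least 1 FPKM over both groups and made by log2 ratio with a pseudocount of 1 FPKM, at a 2-fold threshold and by whether the deposited bounds overlapped. Counts over all genes kept genes without an estimate in 1 group, listed there at 0, while lists and medians of lists left them out. Shares are the fetal or atrial FPKM over the sum of the pair, and their ranges combine opposite bounds. From each of the 3 gene lists, up to 2 rises and 2 falls past both criteria were named. Alternatives covered the pseudocount, the filter, the fold, the scaling, the status, repeated names and the denominators of the shares. Positions and transcripts are from GENCODE M21 on GRCm38, and promoters from RefSeq on GRCm38.p6. No protein sequences were used here. Calculations used Python 3.11.15, pandas 2.3.3 and numpy 2.4.6 and were tested on simulated data.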

Additional observations from a re-analysis of the deposited data

How the results depend on the processing

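No paired analysis was possible because single libraries have no values of their own, and for the same reason none could be left out in turn. Spread within a group is unknown, and so is the depth, which limits Tnni1 most. Of 90 log2 ratios of the 10 contractile genes under other settings, 89 stayed within the range of their bounds. The exception was Tnni1, at 0.97 against the cardiomyocyte markers. That count is a weak check. The settings for filter, status and repeated names cannot change the ratio of a contractile gene, so they match by construction. The ranges are also wide: Myl3, Myl2 and Myh7 changed sign against the cardiomyocyte markers and still lay within theirs. A pseudocount of 5 FPKM gave 304 genes higher and 559 lower in all, 3 other sarcomere genes lower, 3 nonmuscle and smooth muscle genes higher and 0 regulators higher. A minimum mean of 5 FPKM gave 492 genes higher at 2-fold, 446 higher by separate bounds, and 0 regulators higher. At 1.5-fold there were 1938 genes higher and 2582 lower. There were 7 other sarcomere genes higher and 12 lower, 12 nonmuscle and smooth muscle genes higher, and 3 regulators higher and 7 lower. At 4-fold there were 136 genes higher and 154 lower, 1 contractile isoform gene lower (Myh7b), 0 other sarcomere genes higher and 1 lower, 0 nonmuscle and smooth muscle genes higher, and 0 regulators higher and 1 lower. These follow from the threshold or filter itself. Centring on the cardiomyocyte markers, added after seeing the data, left 1 contractile isoform gene 2-fold lower (Myh7b) and 0 lower by separate bounds, with 7 other sarcomere genes higher and 2 lower. The Tnni1 share with a pseudocount of 1 was 0.0158% in the control and 0.0374% in Rbfox2 OE, and with 5 it was 0.0669% and 0.141%, because the pseudocount exceeds the gene's own level. Among genes past 2-fold, those lower in Rbfox2 OE made up 59.0% on the deposited scale, 53.2% with the median gene set to 0 and 45.9% when rescaled.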
